A study of Mus musculus with 6 samples.

Results

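The locus described here holds the ATF4 peaks that the deposited lists name for Slc7a5, Klhdc4, Car5a or Banp, 4 neighbouring genes on mouse chromosome 8. Every row of the 4 lists with one of these gene names was taken, at any distance from the gene, which gave 23 peaks of 17462 in all. The locus was selected on the scores of its strongest peaks, so its scores and ranks are a description and no test was made on them. Klhdc4 was named for 13 of the peaks, Slc7a5 for 7, Car5a for 3 and Banp for none.

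The data were ATF4 ChIP-seq peaks of primary mouse embryonic fibroblasts (MEFs) of the strain 129S6/SvEvTac, obtained with the antibody sc-200. The 4 conditions were wild-type (WT) MEFs in complete DMEM (WT +Leu), WT MEFs in DMEM lacking leucine (WT -Leu), and GCN2-/- MEFs in the same media (GCN2 KO +Leu and GCN2 KO -Leu), each for 24 h. Each condition had 1 library, for which the chromatin of 2 independent experiments (at least 5 replicates in each) had been pooled, so no value below has a replicate error and no difference between conditions could be tested. The lists do not measure GCN2 itself, so the genotype labels were not checked here. The WT lists held 4850 peaks with leucine and 6374 without it, and the GCN2 KO lists 3566 and 2672. Each peak carries the authors' score, a whole number from 13 up whose scale the sources used here do not give. The minimum of 13 in every list equals -10 times the log10 of 0.05, the FDR used for peak calling, when decimals are dropped. If the score is such a log-scaled q-value, a ratio of scores below compares the significance of peaks and not the amount of ATF4 bound. The lists do not give sequencing depth, so a higher score and a deeper library cannot be told apart.

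SLC7A5, also called LAT1, is a transporter that carries leucine and other large neutral amino acids into the cell, as a dimer with the heavy chain SLC3A2. GCN2 is a kinase that is activated when amino acids run short and phosphorylates eIF2α, which lowers general translation and raises that of the ATF4 mRNA. ATF4 is a bZIP factor that binds, with C/EBP family partners, composite elements of the type TGATGCAA, and many of its targets serve amino acid uptake and synthesis. KLHDC4 is a kelch-domain protein, CAR5A is a mitochondrial carbonic anhydrase, and BANP is a nuclear DNA-binding protein.

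In GRCm38, the assembly that mm10 names, Klhdc4 spans chr8:121796308-121829583, Slc7a5 spans chr8:121881146-121907686 and Car5a spans chr8:121916135-121944912, all on the minus strand. Banp follows on the plus strand at chr8:121947972-122029260. The plus-strand lncRNA gene Gm26812, chr8:121850186-121879518, fills much of the interval between Klhdc4 and Slc7a5. The 23 peaks covered a stretch of 139792 bp, chr8:121805362-121945153. The nearest peaks outside it that were named for other genes lay 54830 to 150425 bp before its start (Jph3 or Zcchc14, scores of 28 to 42) and 51900 to 182599 bp beyond its end (all named Mir7237, scores of 24 to 37).

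The locus held 3 sites with a score of 100 or more in at least 1 list, and their sequences are shown because each held the ATF4-type motif close to the peak center. All are read on the plus strand of GRCm38, 5′ to 3′, with TGATGCAA, or TTGCATCA where the motif is on the minus strand, in capitals. The first 2 were found in all 4 lists and the last only in WT -Leu.
Gm26812 site, chr8:121851079-121851251: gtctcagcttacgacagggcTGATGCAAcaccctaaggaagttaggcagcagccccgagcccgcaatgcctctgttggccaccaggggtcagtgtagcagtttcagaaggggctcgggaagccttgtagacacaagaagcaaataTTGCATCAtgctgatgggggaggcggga
Slc7a5 intron site, chr8:121898575-121898622: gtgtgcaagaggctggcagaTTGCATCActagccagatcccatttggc
Upstream site, chr8:121848593-121848640: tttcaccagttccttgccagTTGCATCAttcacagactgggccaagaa

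The Gm26812 site was named for Klhdc4 in all 4 lists because the nearest listed TSS was that of Klhdc4. Its median center lay 21.6 kb from the Klhdc4 TSS, 56.5 kb from the Slc7a5 TSS and 29.9 kb beyond the last base of Slc7a5. The lists annotate it as intergenic. In the RefSeq annotation of GRCm38.p6 it lay 1042 bp downstream of the start of Gm26812, between exon 1 (chr8:121850186-121850414) and exon 2 (chr8:121860096-121860217) of transcript XR_003947481. In WT the window was chr8:121851084-121851384 with leucine and chr8:121851072-121851372 without it, and in GCN2 KO chr8:121850974-121851274 with leucine and chr8:121851085-121851385 without it.

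The Slc7a5 intron site lay 9.08 kb downstream of the Slc7a5 TSS, in intron 1, between exon 1 (chr8:121907066-121907686) and exon 2 (chr8:121896428-121896565) of NM_011404. Its window in WT was chr8:121898463-121898763 with leucine and chr8:121898457-121898757 without it, and in GCN2 KO chr8:121898442-121898742 and chr8:121898453-121898753. The distance between the Gm26812 site and the Slc7a5 intron site was 47.4 kb. By the TSS that the lists give for each peak, both lay outside the 5 kb within which the study assigned targets, although the RefSeq start of Gm26812 is nearer to the Gm26812 site than that.

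At the Gm26812 site the score in WT was 1409 with leucine and 2319 without it, and in GCN2 KO it was 328 with leucine and 132 without it. Its ranks in the same order were 2 of 4850, 3 of 6374, 3 of 3566 and 9 of 2672 peaks. The score was thus highest in leucine-starved WT MEFs and lowest in leucine-starved GCN2 KO MEFs, while the site stayed among the 9 highest of each list. On chromosome 8 it had the highest score of all peaks in WT +Leu (292 peaks), GCN2 KO +Leu (242 peaks) and GCN2 KO -Leu (166 peaks), and was 2nd of 369 in WT -Leu, behind the Ciapin1 peak. For scale, the highest peak of each list scored 1499 (Chac1, WT +Leu), 2628 (Ciapin1, WT -Leu), 391 (Chac1, GCN2 KO +Leu) and 353 (Tgif1, GCN2 KO -Leu).

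The Slc7a5 intron site scored 776 with leucine and 1171 without it in WT, and 148 with leucine and 37 without it in GCN2 KO. These scores ranked 5, 17, 15 and 420 in their lists. The order of the lists was the same as at the Gm26812 site, but in GCN2 KO -Leu the peak lay outside the strongest part of the list, at the 81.8th percentile of scores against the 99.6th or higher in the other 3 lists. Within WT libraries the Gm26812 site scored 1.82 times (+Leu) and 1.98 times (-Leu) as high as the Slc7a5 intron site, and within GCN2 KO libraries 2.22 and 3.57 times. These ratios too are ratios of scores, with the limit on the scale given above.

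**Figure D1:**
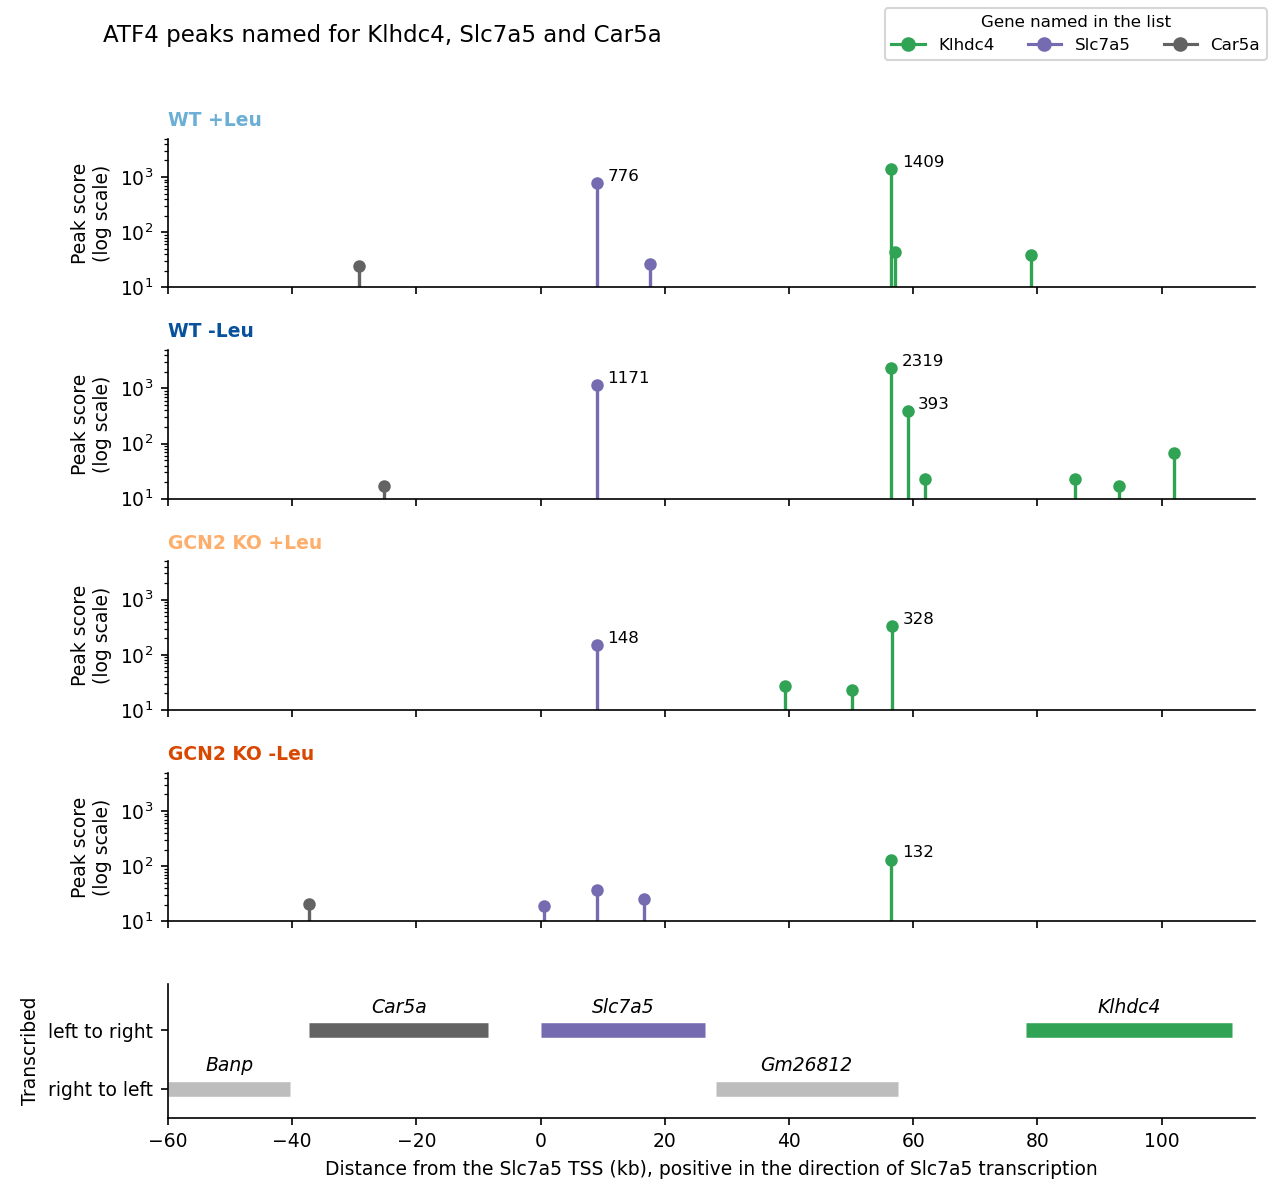
ATF4 peaks of the locus in the 4 lists. The x axis is the distance of the peak center from the Slc7a5 TSS in kb (positive in the direction of Slc7a5 transcription), the y axis is the peak score on a log scale, colours give the gene named in the list, and the bottom track shows the RefSeq genes (Banp is cut at the left edge). The Slc7a5 intron site and the Gm26812 site, at 9.08 and 56.5 kb, appear in every list, and the peak of score 393 at 59.1 kb in WT -Leu only.

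Among peaks more than 5 kb from the TSS given in the lists, which leave out that of Gm26812, the Gm26812 site ranked 1 of 4038 in WT with leucine and 2 of 5198 without it, and 2 of 2967 and 5 of 2239 in GCN2 KO. The Slc7a5 intron site ranked 3, 8, 6 and 339 in the same order. A score of 100 or more was rare in 3 of the lists. It was reached by 2 of the 6 locus peaks in WT +Leu, where 1.86% of all peaks reached it, and by 3 of 8 in WT -Leu, where 9.82% did. In GCN2 KO +Leu 2 of 4 locus peaks reached it against 0.897% of the list, and in GCN2 KO -Leu 1 of 5 against 0.487%. Since the locus was chosen for these scores, nothing is read from the counts.

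**Figure D2:**
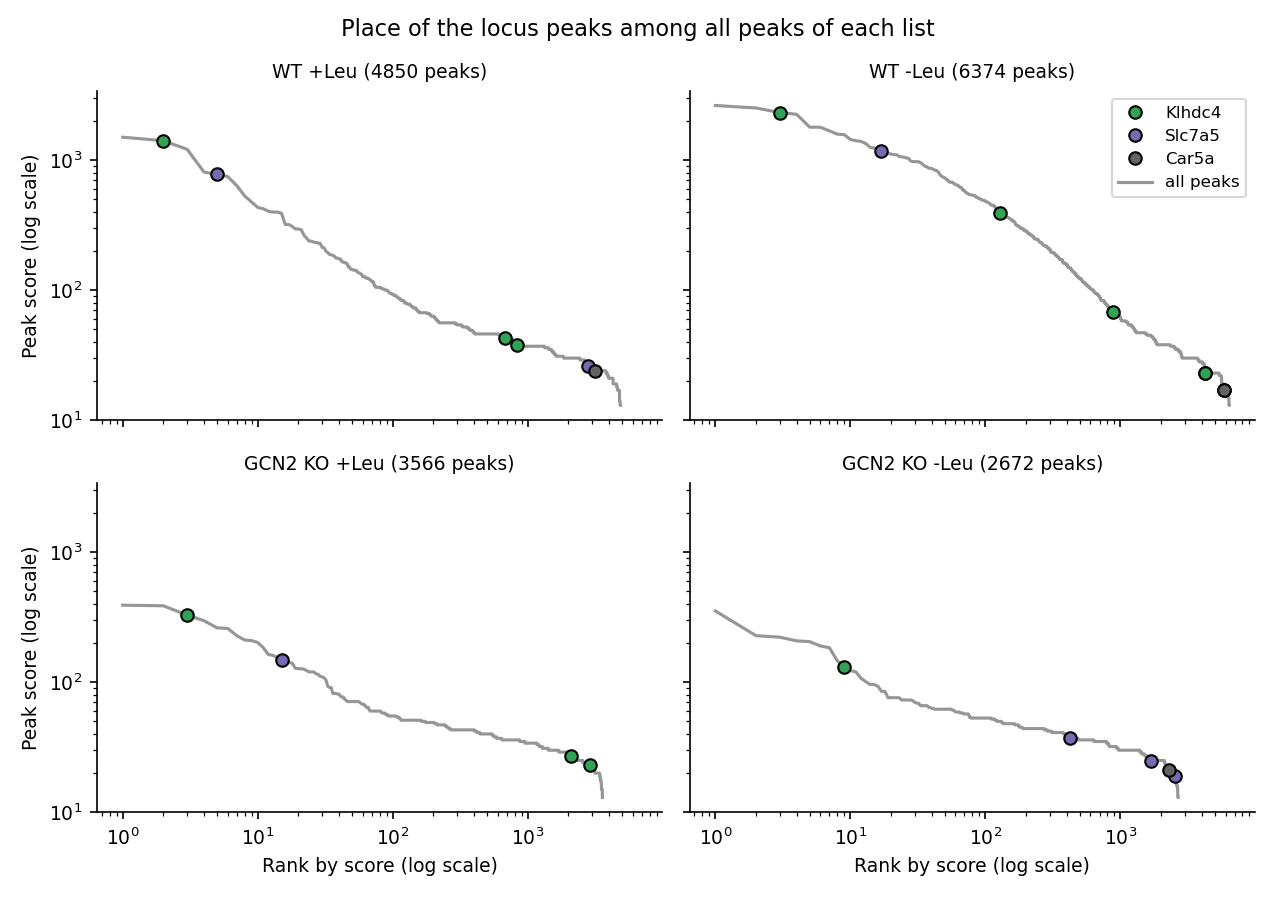
Place of the locus peaks among all peaks. The x axis is the rank by score and the y axis the score, both on log scales, with the grey line for all peaks of a list and points for the locus peaks coloured by the gene named (peaks of equal score, such as the 2 of score 23 in WT -Leu, overlie each other). In the WT lists and GCN2 KO +Leu a pair of peaks lies in the 17 highest, and in GCN2 KO -Leu only the Gm26812 site does, at rank 9.

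The motif TGATGCAA was searched on both strands. Within 50 bp of the peak center it was found in 2 of the 6 locus peaks of WT +Leu (2.71% of all peaks of that list on assembled chromosomes) and in 3 of the 8 of WT -Leu (6.95% of all peaks). In the GCN2 KO lists it was found in 2 of the 4 locus peaks with leucine (1.07% of all peaks) and 2 of the 5 without it (1.09% of all peaks). The 9 locus peaks with the motif were the Gm26812 site and the Slc7a5 intron site in each list and the upstream site in WT -Leu. The motif was common at strong peaks in general. Among all peaks with a score of 100 or more on assembled chromosomes, 49 of 89 held it in WT +Leu and 237 of 623 in WT -Leu. In GCN2 KO, 12 of 30 such peaks held it with leucine and 6 of 11 without it. Nothing particular to the locus is therefore read from its counts. None of the other 14 peaks held TGATGCAA, or TGATGNAA with any base at the variable place, anywhere in its window.

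The Gm26812 site held the motif on both strands, with starts 125 bp apart, at chr8:121851099-121851106 (plus strand) and chr8:121851224-121851231 (minus strand). The peak center lay 7 bp from the minus-strand copy in WT +Leu, 5 bp in WT -Leu and 8 bp in GCN2 KO -Leu. In GCN2 KO +Leu it lay 103 bp from that copy and 22 bp from the plus-strand one. The centers at this site therefore spanned 111 bp over the 4 lists, against 21 bp at the Slc7a5 intron site. At the Slc7a5 intron site the single copy, chr8:121898595-121898602 on the minus strand, was 15 and 9 bp from the center in WT with and without leucine, and 6 and 5 bp from it in GCN2 KO. The resolution of a peak center in these libraries was not estimated here, so whether the shift in GCN2 KO +Leu exceeds it was not tested.

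**Figure D3:**
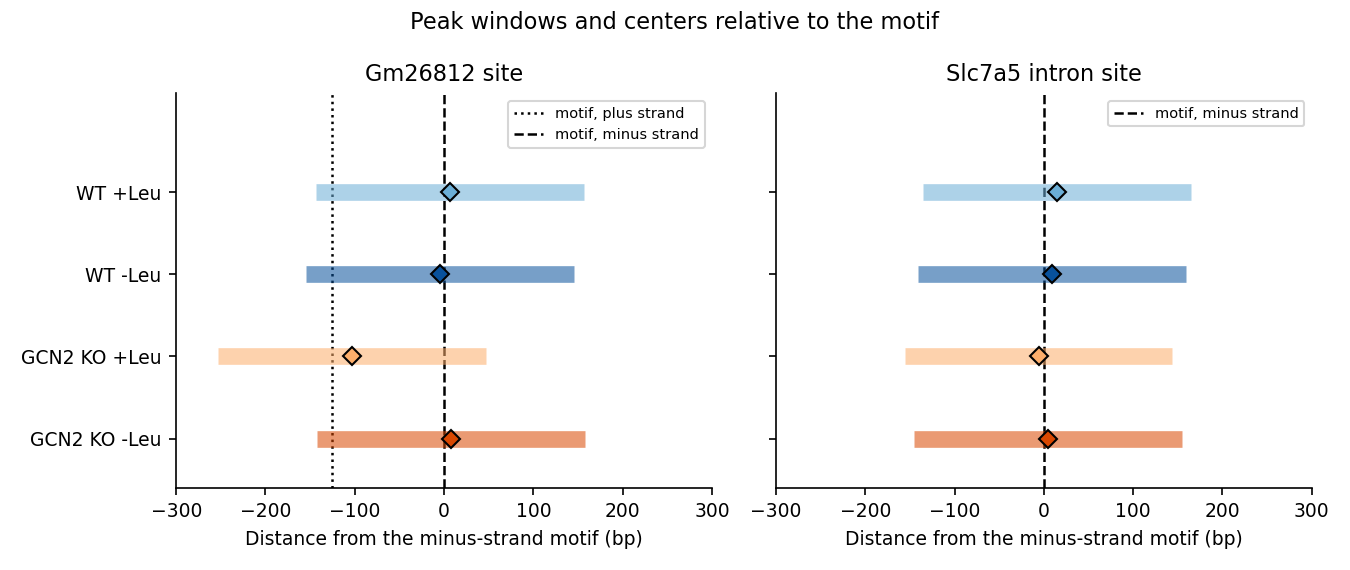
Peak windows (bars) and centers (diamonds) of the 2 sites found in all 4 lists. The x axis is the distance in bp along the plus strand from the minus-strand motif, marked by the dashed line, and the dotted line marks the plus-strand motif. The centers lie 5 to 15 bp from the dashed line except at the Gm26812 site in GCN2 KO +Leu, where the center lies 22 bp from the dotted line.

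Between the start of Klhdc4 and the end of Banp, a stretch of 232953 bp, TGATGCAA occurred 6 times on either strand, or 2.58 times per 100 kb, against 3.17 per 100 kb over chromosome 8. Of the 6 copies, 4 lay in a peak window of at least 1 list. Over chromosome 8, these included, 48 of the 3980 copies did (1.21%). The 4 copies lie in the strong sites of a locus that was chosen for its strong peaks. A high share was thus fixed by the selection, and nothing is read from it. The other 2 copies are shown for comparison, in the orientation of the motif with 8 bases on each side.
Copy in Gm26812 without a peak, chr8:121878835-121878842, plus strand: ctgggctcTGATGCAAtcaagcac
Copy in Banp without a peak, chr8:121954951-121954958, minus strand: atctgatcTGATGCAAaggaaaac
The copy in Gm26812 was 10532 bp and the copy in Banp 9951 bp from the nearest peak center of any list. TGATGCAA was followed by T, which makes the longer form TGATGCAAT, in 3 of the 6 copies. These were the minus-strand copies of the Gm26812 site and the Slc7a5 intron site, and the copy in Gm26812 without a peak, so the longer form did not separate copies with and without a peak. The plus-strand copy of the Gm26812 site and the copy of the upstream site were followed by C. Over the whole lists, TGATGCAAT lay within 50 bp of the center of 1.03% (+Leu) and 2.86% (-Leu) of WT peaks, and of 0.479% (+Leu) and 0.301% (-Leu) of GCN2 KO peaks.

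No promoter peak accompanied the distal sites in the WT lists at Slc7a5. The promoter table from RefSeq (GRCm38.p6, 300 bases each) holds Klhdc4 and Car5a, and neither of these promoters contains TGATGCAA or TGATGNAA. It holds no promoter of Slc7a5 or Banp. Those promoters were therefore not searched for TGATGNAA, and for TGATGCAA only as part of the whole stretch above. In that stretch the copy nearest to the Slc7a5 TSS lay 9.09 kb from it. The only copy in Banp began at chr8:121954951, against a gene start of chr8:121947972. No copy of TGATGCAA thus lay next to either RefSeq start. Of the 32851 promoters in the table, 0.895% contain TGATGCAA and 3.97% TGATGNAA.

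The comparison of WT MEFs without and with leucine addresses how leucine deprivation changes ATF4 binding. Of the 6 WT +Leu peaks of the locus, 2 had a WT -Leu peak with its center 300 bp or less away. Over the whole WT +Leu list, 6.35% of peaks had one. The 2 were the strong peaks, of rank 2 and 5, for which the locus was chosen, so nothing is read from this count. The Gm26812 site had a -Leu score of 2319 and a +Leu score of 1409 (ratio 1.65), and the Slc7a5 intron site had 1171 and 776 (ratio 1.51). Over the 308 common pairs of the WT lists the median ratio was 2.36, with quartiles of 1.27 and 4.56, and 81.8% had the higher score in WT -Leu. Both sites thus had a ratio below the median of the common peaks, with 204 pairs above the Gm26812 site and 217 above the Slc7a5 intron site. The common pairs include peaks of any score. The other peaks ranked 1 to 5 in WT +Leu also had ratios below that median, 1.68 (Chac1), 1.86 (Ubr2) and 1.94 (Atf5), each above those of the locus sites. The peak ranked 6, Asns, had a ratio of 2.40, above the median.

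Of the 4 locus peaks listed in GCN2 KO +Leu, 2 had a partner in the -Leu list, against 2.75% of the whole list. These were again the strong peaks, of rank 3 and 15, so nothing is read from the count. Here the score was lower without leucine at both sites, from 328 to 132 (ratio 0.402) at the Gm26812 site and from 148 to 37 (ratio 0.25) at the Slc7a5 intron site. The 98 common pairs of the GCN2 KO lists had a median ratio of 1.0, with quartiles of 0.672 and 1.25, and 45.9% had the higher score in GCN2 KO -Leu. Of these, 9 pairs had a lower ratio than the Gm26812 site, and 3 a lower ratio than the Slc7a5 intron site. The 98 pairs include peaks of any score. The other peaks ranked 1 to 5 with leucine also had ratios below that median. They were 0.471 (Chac1), 0.574 (Ubr2), 0.209 (Arl14ep) and 0.87 (Creb3l1). The peak ranked 6, Tgif1, had a ratio of 1.36. A low ratio was thus not particular to the locus among the strongest peaks. The GCN2 KO -Leu list was also the smallest of the 4, at 2672 peaks, and whether its depth had a part in these ratios was not tested.

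**Figure D4:**
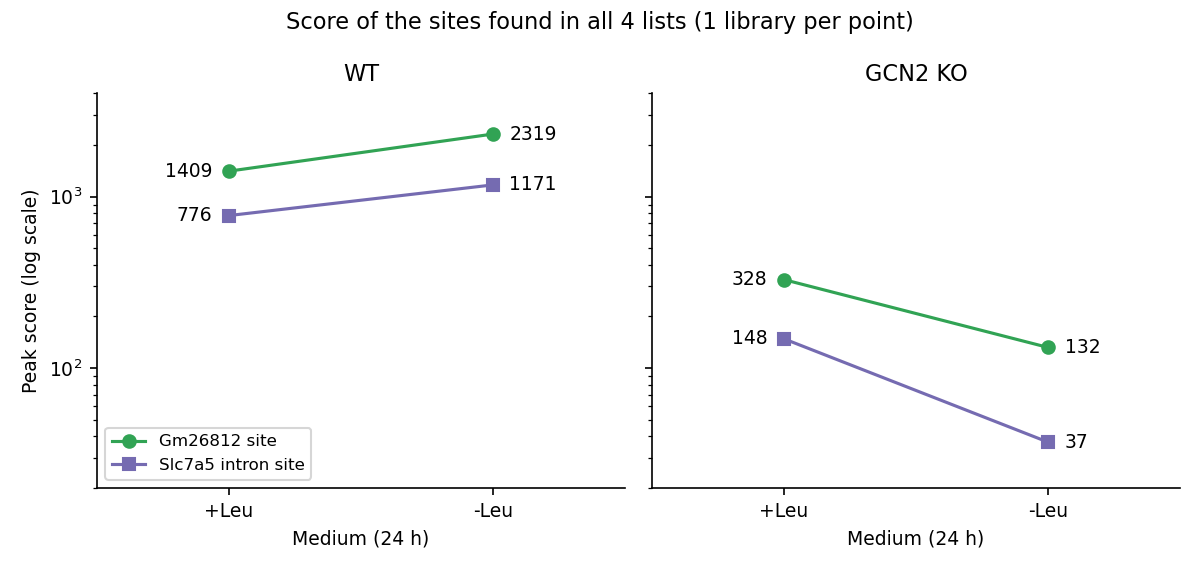
Scores of the sites found in all 4 lists. The y axis is the peak score on a log scale and the x axis the medium, with WT at left and GCN2 KO at right, and each point is 1 library, so there are no error bars. At both sites the -Leu point lies above the +Leu point in WT and below it in GCN2 KO.

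**Figure D5:**
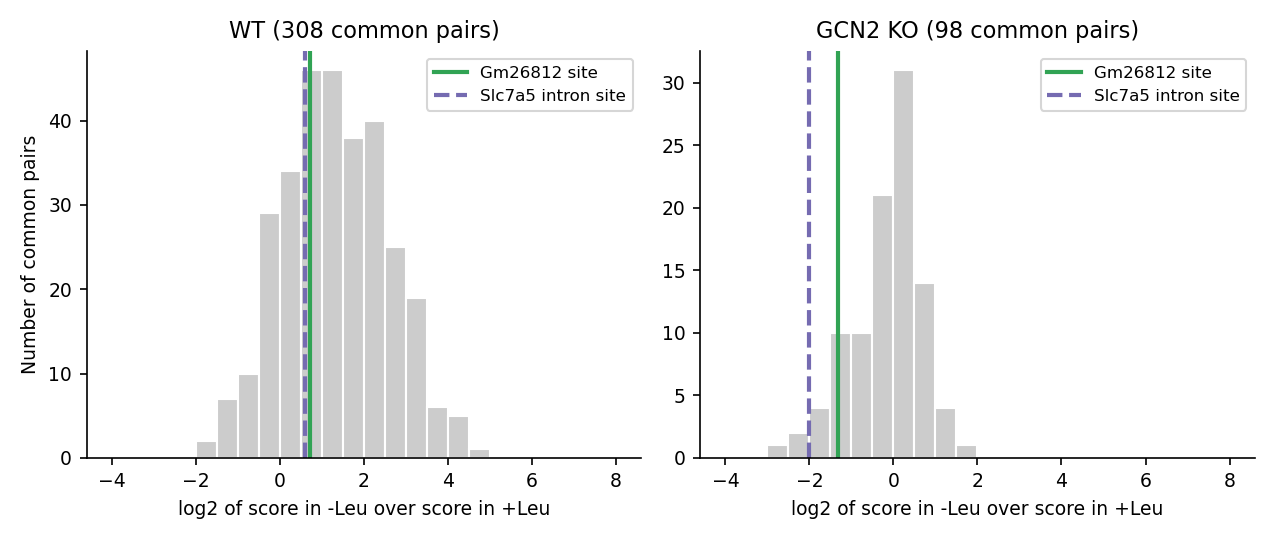
Ratio of the score without leucine to that with leucine for all common pairs. The x axis is the log2 ratio and the y axis the number of pairs, with 308 pairs in WT and 98 in GCN2 KO. The vertical lines mark the Gm26812 site (0.72 in WT, -1.31 in GCN2 KO) and the Slc7a5 intron site (0.59 in WT, -2.0 in GCN2 KO).

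Between genotypes, the WT score was 4.30 times the GCN2 KO score at the Gm26812 site and 5.24 times at the Slc7a5 intron site with leucine. Without leucine the ratios were 17.6 and 31.6. The 94 pairs common to the +Leu lists had a median ratio of 1.52 and the 81 pairs common to the -Leu lists a median of 2.13, with quartiles of 1.15 and 9.39. With leucine 8 pairs had a higher ratio than the Gm26812 site and 3 a higher ratio than the Slc7a5 intron site, and without leucine 9 and 4 did. The 94 and 81 pairs include peaks of any score. The other peaks ranked 1 to 5 in WT +Leu also had ratios above these medians, though below those of both locus sites. With leucine they were 3.83 (Chac1), 3.12 (Ubr2) and 3.54 (Atf5), and without it 13.7, 10.1 and 7.65. For the peak ranked 6, Asns, the ratios were 4.05 and 43.6. A high ratio was thus not particular to the locus among the strongest peaks. The scores of the strongest peaks differed between the genotypes across the lists too, since the highest score was 1499 and 2628 in WT and 391 and 353 in GCN2 KO.

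Only 30 WT -Leu peaks, 0.471% of that list, had a partner in each of the other 3 lists, and 2 of these were the Gm26812 site and the Slc7a5 intron site. The locus held 1 pair of such sites within 50 kb of each other, and no other pair was found among the 27 sites on assembled chromosomes. That limit lies close to the 47.4 kb between the 2 sites. Strong neighbours were not particular to the locus. Of peaks with a score of 100 or more, 8 of 89 in WT +Leu had another within 50 kb (2 of them locus peaks). The counts were 62 of 623 in WT -Leu (3 locus peaks), 4 of 30 in GCN2 KO +Leu (2 locus peaks) and 0 of 11 in GCN2 KO -Leu. Of the 30 sites, 14 lay more than 5 kb from a TSS. TGATGCAA lay within 50 bp of the center at 17 of the 27 sites on assembled chromosomes, the only ones searched for it. A score that was higher in -Leu in WT and lower in -Leu in GCN2 KO was seen at 20 of the 30, both locus sites included. Ranked by score within the 30 sites, the Gm26812 site was 2 with and 2 without leucine in WT, and 3 with and 9 without it in GCN2 KO. The Slc7a5 intron site was 5 and 10 in WT and 12 and 28 in GCN2 KO.

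The upstream site, chr8:121848468-121848768, was listed in WT -Leu only. It scored 393 and ranked 128 of 6374, lay 2.61 kb from the Gm26812 site and 1568 bp before the start of Gm26812, and was named for Klhdc4, whose TSS is 19.0 kb away. Its center was 2 bp from the middle of its only TGATGCAA copy. Of the 132 WT -Leu peaks with a score of 393 or more, 41 had no WT +Leu partner (31.1%, 95% Wilson interval 23.8 to 39.4, counting error only) and 39 had a partner in no other list. Strong peaks of this kind were thus listed at many other places in the genome.

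The 14 remaining peaks were weak and each was found in 1 list, with scores of 17 to 68. Those named for Klhdc4 numbered 8. In WT +Leu, 1 lay in intron 1 of Klhdc4, 886 bp from the TSS (score 38), and another 535 bp from the Gm26812 site, at an annotated B4A SINE repeat (score 43). In WT -Leu, 3 lay in Klhdc4, in intron 6 (score 68), intron 4 (score 17, also at a B4A SINE) and intron 2 (score 23), and 1 was intergenic (score 23). In GCN2 KO +Leu, 2 intergenic peaks scored 23 and 27. Of the 9 locus peaks that the lists call intergenic, 7 lay inside Gm26812 in RefSeq.

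Slc7a5 was named for 3 of these weak peaks and Car5a for 3. Intron 2 of Slc7a5 held a peak of score 26 in WT +Leu and another of score 25 in GCN2 KO -Leu, with centers at 17575 and 16724 bp from the TSS, too far apart to be common. The former was the locus peak that held the AP-1 element TGAGTCA (both strands searched), which occurred in the windows of 5.99% of WT +Leu peaks. The only peak within 5 kb of the Slc7a5 TSS was in GCN2 KO -Leu, at chr8:121906984-121907284 over exon 1, with a score of 19 and rank 2527 of 2672, and a GC content of 65.8%. The Car5a peaks lay in intron 2 in WT +Leu (score 24) and WT -Leu (score 17), and 91 bp before the TSS in GCN2 KO -Leu (score 21). Of the 14 weak peaks, 11 scored below the median of their list, which was 29 in GCN2 KO +Leu and 30 in the other 3.

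Within 5 kb of its own TSS as listed, then, Klhdc4 had 1 peak in WT +Leu, Slc7a5 and Car5a had 1 each in GCN2 KO -Leu, and no member gene had one in the WT -Leu and GCN2 KO +Leu lists. The Gm26812 site and the upstream site are within that distance of the RefSeq start of Gm26812. Banp was named for no peak, but 2 GCN2 KO +Leu peaks lay inside its gene body, at chr8:121997053-121997353 (score 31) and chr8:122003132-122003432 (score 40). The lists name both for the microRNA gene Mir7237, which lies within Banp. As a share of each list, the locus peaks made up 0.124% in WT with leucine (6 peaks, 95% Wilson interval 0.0567 to 0.27) and 0.126% without it (8 peaks, 0.0636 to 0.247). In GCN2 KO they made up 0.112% with leucine (4 peaks, 0.0436 to 0.288) and 0.187% without it (5 peaks, 0.08 to 0.437). The intervals cover the counting error within 1 library and were not used to compare conditions.

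Slc7a5 and related amino acid transporter genes were looked up as a list of 12 genes. It held the heavy chains Slc3a1 and Slc3a2, their partner chains Slc7a5 to Slc7a11 and Slc7a13, and the transporters Slc43a1 and Slc43a2. In WT +Leu, 5 of the 12 were named for a peak at any distance (Slc7a5, Slc7a6, Slc7a7, Slc7a8 and Slc43a2), in WT -Leu 4 (Slc7a5, Slc3a2, Slc7a8 and Slc7a11), and in each GCN2 KO list only Slc7a5. Over all lists 7 of the 12 had a peak, against 32.8% of the 21896 protein-coding genes of RefSeq. Of these 7, then, the 4 lists named 5, 4, 1 and 1 in the same order. Of the 8863 genes named in any list, 42.7% were named in the WT list with leucine and 53.4% in that without it, and 32.3% and 25.0% in those of GCN2 KO. Slc7a5 is a member of the locus chosen for its strong peaks, so its place in these counts was fixed by the selection. Nothing is read from the counts. Slc3a2, the heavy chain that pairs with SLC7A5, had a peak in WT -Leu only, 871 bp from its TSS in intron 1, with a score of 347 and rank 155. Slc7a11, the cystine importer xCT, had a promoter peak with TGATGCAA in WT -Leu, of score 77, and a second of score 47 at 117844 bp. The peaks of Slc7a6 (13), Slc7a7 (21), Slc7a8 (19 in WT +Leu, 23 in WT -Leu) and Slc43a2 (21) scored below the medians of their lists. No gene of the list other than Slc7a5 thus had a peak with a score of 100 or more outside WT -Leu.

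The genes whose highest scores over the 4 lists were nearest to those of Klhdc4 were Chac1, Ubr2 and Atf5, with distances of 0.559, 0.814 and 1.28 on the log2(1 + score) scale among 8863 genes. Chac1, a gamma-glutamylcyclotransferase that degrades glutathione, scored 1499 with and 2515 without leucine in WT, and 391 with and 184 without it in GCN2 KO. Its peak lay 186 to 236 bp before the TSS. In the same order Ubr2, a ubiquitin ligase, scored 1209, 2249, 387 and 222 at an intronic site 15388 to 15407 bp downstream of its TSS, and Atf5, a bZIP factor, scored 808, 1569, 228 and 205. Nearest to Slc7a5 were Asns, Psat1 and Gm5627, with distances of 0.702, 1.28 and 1.29. Asns, which makes asparagine, scored 746, 1787, 184 and 41 close to its TSS, and Psat1, an enzyme of serine synthesis, scored 398, 1050, 161 and 66. Gm5627 scored 319, 1238, 143 and 39. The likeness rests on 4 libraries and on genes of any kind of peak, and is a description.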

How the data were processed

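ATF4 ChIP-seq was analysed from the authors' 4 annotated peak lists. Per the methods and the submitters' processing notes, reads were trimmed with fastx, aligned to mm10 with BWA 0.7.12, and peaks called with MACS2 2.1.0 (--nomodel, FDR 0.05) against input of the same genotype. The summit ±150 bp was annotated with HOMER 4.7. For the -Leu lists, the file headers give the +Leu input as control. The deposited peak score is not normalized between libraries, and the deposited GC and CpG content is a fraction of the window's bases. The 2 input libraries were not analysed here.

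Ranks (1 = highest, ties at the lowest rank), common peaks (centers 300 bp or less apart) and motif matches were computed from these lists with Python 3.11.15, pandas 2.3.3, scipy 1.17.1 and pysam 0.24.0. GRCm38.p6 was read only after the GC content of every peak on assembled chromosomes had been found equal to the reference. The functions for overlaps and motifs were checked with simulated peaks. Distances to a motif run from the window's center to the motif's middle. The locus, gene lists and motifs were chosen with earlier results of these data known. Named genes were the 4 locus genes, transporter-list genes with a peak, flanking genes, the highest peak of each list and the 3 genes nearest in log2(1 + highest score) to Slc7a5 and to Klhdc4. The RefSeq lncRNA Gm26812 and the AP-1 motif were added after the values were seen. Alternatives are given at the end.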

Additional observations from a re-analysis of the deposited data

Results flagged for a closer look

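At both sites found in all 4 lists, the score moved in opposite directions in the genotypes when leucine was withheld. At the Gm26812 site the ratio of the -Leu to the +Leu score was 1.65 in WT and 0.402 in GCN2 KO. At the Slc7a5 intron site it was 1.51 in WT and 0.25 in GCN2 KO. Each ratio rests on 1 library per condition, so the difference was not tested, and 20 of the 30 sites found in all lists showed the same directions.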

How the results depend on the processing

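Of 48 alternative values, 35 stayed within 1.5 times the main count or within the interval of the main share. The 35 include the percentile ranks, which repeat the main values. They also include the wider motif settings, which could only keep or raise a count. The order of the lists by number of locus peaks did not hold throughout: WT had 6 with leucine and 8 without it, but 1 and 0 within 5 kb of the listed TSS, and GCN2 KO had 4 and 5, but 4 and 3 beyond 5 kb. Keeping scores of 30 or more left 4 of the 8 locus peaks in leucine-starved WT MEFs, and in GCN2 KO 2 of 4 with leucine and 2 of 5 without it. Within 5 kb, GCN2 KO had 0 with leucine and 2 without it. With a limit of 100 bp between centers, 1 site in place of 2 was common to the GCN2 KO lists, and 1 in place of 2 to the +Leu lists, because the center of the Gm26812 site in GCN2 KO +Leu lay apart from the others. Ranked within chromosome 8, the strongest locus peak stood at 0.342% of peaks in WT +Leu against 0.0412% of the whole list, at 0.542% against 0.0471% in WT -Leu, and at 0.413% against 0.0841% in GCN2 KO +Leu, since chromosome 8 holds fewer peaks. The motif counts were the same with a window of 150 bp and with TGATGNAA. No paired analysis was possible because each condition had 1 library. The lists hold no read depth, which leaves the error of each score unknown.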
